A study of Homo sapiens with 192 samples.

Results

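The clustered protocadherins are 53 protein-coding genes of GENCODE 44 on chromosome 5, out of 20033 protein-coding genes on the chromosomes of the table. They were chosen by name (PCDHA, PCDHB or PCDHG followed by a number, A, B or C) and by position, and 23 of the 80971 accessible features of the table lay in their interval of 740 kb on hg38, which runs from upstream of PCDHA1 to downstream of the last gamma constant exon. The alpha cluster has 15 members (13 variable genes, PCDHAC1 and PCDHAC2), the beta cluster has 16 and the gamma cluster has 22 (19 variable genes, PCDHGC3, PCDHGC4 and PCDHGC5). Open chromatin was measured in sorted single nuclei (plate-based snATAC-seq) of HAP1, a near-haploid adherent human cell line derived from a chronic myeloid leukemia line. Nuclei labeled with CASB, a DNA barcode carried on the nuclear membrane by concanavalin A, were pooled with unlabeled nuclei and sorted 1 per well. The 2 groups here are plate 1 and plate 2, of 96 cells each, and both hold the same line, with no other treatment named. Which nuclei carried the CASB label is not known here, so each plate was taken as 1 mixed sample, no test was made, and intervals are exact (Clopper-Pearson) 95% intervals that cover counting error only.

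Clustered protocadherins are cell surface proteins of the cadherin superfamily that bind like molecules on other cells. Each variable exon has its own promoter and is spliced to constant exons shared by its cluster, except in the beta cluster, whose genes stand alone. In neurons a few variable promoters are chosen per cell, with the help of CTCF, cohesin and distant enhancers, and give each cell an identity by which its own branches avoid each other, while the C-type genes next to the constant exons are used more evenly. Enhancers of the alpha cluster are known between and downstream of its constant exons. Their positions are not in the files, so no feature is called by an enhancer's name here.

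The promoters below are examples of the C-type genes and of a variable gene, and are not a comparison of the types. Each runs from 250 bases before the canonical start to 50 bases from it, and capitals mark CGCT on either strand, the core of the element that variable promoters share. PCDHAC1, PCDHAC2 and PCDHGC3 are C-type genes with an accessible promoter, PCDHGC4 is a C-type gene without one, and PCDHA11 is the variable alpha gene whose promoter was seen in most nuclei. The number of CGCT varied within each type, with 6 in PCDHGB4, 5 in PCDHB3 and 0 in PCDHGC5, chosen after their values were seen.
PCDHAC1 (chr5:140926049-140926348): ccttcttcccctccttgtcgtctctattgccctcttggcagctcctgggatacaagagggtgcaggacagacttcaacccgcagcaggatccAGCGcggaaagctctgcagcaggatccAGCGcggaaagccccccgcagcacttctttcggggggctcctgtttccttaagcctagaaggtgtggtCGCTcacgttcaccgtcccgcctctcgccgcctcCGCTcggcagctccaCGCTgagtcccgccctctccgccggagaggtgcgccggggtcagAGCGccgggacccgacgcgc
PCDHAC2 (chr5:140966226-140966525): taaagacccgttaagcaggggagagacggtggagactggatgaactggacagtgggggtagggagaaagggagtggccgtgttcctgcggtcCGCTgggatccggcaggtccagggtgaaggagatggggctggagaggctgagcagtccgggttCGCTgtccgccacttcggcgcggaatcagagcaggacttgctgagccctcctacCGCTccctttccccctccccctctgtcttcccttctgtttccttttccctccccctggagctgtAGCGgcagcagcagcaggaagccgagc
PCDHGC3 (chr5:141475716-141476015): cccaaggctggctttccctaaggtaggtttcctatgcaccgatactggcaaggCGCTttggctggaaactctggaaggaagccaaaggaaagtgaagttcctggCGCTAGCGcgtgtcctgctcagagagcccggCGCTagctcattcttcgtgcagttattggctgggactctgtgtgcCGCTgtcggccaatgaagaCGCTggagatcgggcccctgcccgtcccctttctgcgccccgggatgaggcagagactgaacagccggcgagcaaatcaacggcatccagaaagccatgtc
PCDHGC4 (chr5:141484780-141485079): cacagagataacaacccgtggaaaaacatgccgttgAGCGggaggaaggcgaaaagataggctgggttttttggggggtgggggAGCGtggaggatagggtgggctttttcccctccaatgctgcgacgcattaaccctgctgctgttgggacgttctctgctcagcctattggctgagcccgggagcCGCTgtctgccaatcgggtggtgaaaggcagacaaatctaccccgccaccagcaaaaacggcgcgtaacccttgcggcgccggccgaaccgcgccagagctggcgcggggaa
PCDHA11 (chr5:140868707-140869006): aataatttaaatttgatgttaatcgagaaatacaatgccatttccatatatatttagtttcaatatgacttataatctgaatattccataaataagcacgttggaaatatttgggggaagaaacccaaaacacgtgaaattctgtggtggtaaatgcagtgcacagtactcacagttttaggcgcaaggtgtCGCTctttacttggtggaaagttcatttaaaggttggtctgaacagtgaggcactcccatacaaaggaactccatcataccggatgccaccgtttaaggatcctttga

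All 53 members lie on the forward strand, as do the sequences printed for their promoters. In this 300-base window 51 of 53 members (96.2%) had CGCT on either strand, beside 82.4% of all protein-coding promoters. PCDHA9 and PCDHGC5, chosen after their values were seen, had none. A stretch of 30 bases around a forward CGCT could be taken from 50 members. Where a promoter held several, the one whose stretch was most alike to those of the other members was taken, so the likeness and the positions given here are partly set by that choice. In 48 of them CGCT began between 1 and 100 bases before the start. The stretches below, with CGCT in capitals, are those of the 8 members with a promoter peak, of PCDHA12, PCDHB3, PCDHGA9 and PCDHGC4, which had none, and of PCDHB6 and PCDHGB7, which had none and whose stretches were the least alike to those of their type.
PCDHA3 (chr5:140800997-140801026): agccacatgatgtCGCTgtccaccacaagg
PCDHA5 (chr5:140821545-140821574): atccacatgatgtCGCTggacaccggaagg
PCDHA11 (chr5:140868886-140868915): aggcgcaaggtgtCGCTctttacttggtgg
PCDHA12 (chr5:140875247-140875276): agtcacatgatgtCGCTctacactcagaag
PCDHAC1 (chr5:140926223-140926252): tagaaggtgtggtCGCTcacgttcaccgtc
PCDHAC2 (chr5:140966368-140966397): agcagtccgggttCGCTgtccgccacttcg
PCDHB2 (chr5:141094547-141094576): agacgcggggtggCGCTgcagccttagaag
PCDHB3 (chr5:141100396-141100425): gaacgcatggtggCGCTgttgactaagaag
PCDHB6 (chr5:141149846-141149875): acaaaaaaaccaaCGCTcgcaagcaattat
PCDHGA10 (chr5:141412934-141412963): ggactctgagcgcCGCTgttcacctactag
PCDHGA9 (chr5:141402717-141402746): ggactctgagcgcCGCTgttgatcaactct
PCDHGB7 (chr5:141417610-141417639): agtgcagagcaagCGCTgacgccggggatc
PCDHGC3 (chr5:141475883-141475912): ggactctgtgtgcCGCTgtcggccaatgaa
PCDHGC4 (chr5:141484955-141484984): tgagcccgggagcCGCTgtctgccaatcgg

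Within the alpha variable genes a pair of stretches shared a median of 22 of 30 bases (73.3%), within the beta genes also 22, and within the gamma variable genes 21. The C-type genes shared 13 (43.3%), and CGCT itself makes up 4 bases of every such count. PCDHB6 and PCDHGB7 shared a median of 9 bases with their type, and PCDHAC1 shared 10. Among the variable members with a promoter peak, PCDHA3 was close to its cluster (a median of 25 bases shared with the other alpha variable genes) and PCDHA11 was farther from it (18 bases).

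Of the cells of both plates, 162 passed the study's filter of more than 300 kept peaks, 83 on plate 1 and 79 on plate 2. The read pair counts summed to 241927 on plate 1 and 241240 on plate 2. A passing nucleus had between 345 and 12449 counts on plate 1, with a median of 2029, and between 361 and 15351 on plate 2, with a median of 2162. Cells 37 to 48 and 73 to 84 of a plate share many peaks with cells 73 to 84 and 85 to 96 of the same plate, so results are also given for the 91 passing nuclei outside cells 37 to 48 and 73 to 96. Of the 4 features of the interval seen in exactly 2 cells, 3 were seen in such a pair of wells: the PCDHA5 promoter in cells 79 and 91, the feature at chr5:141076646-141077646 in cells 80 and 92, and that at chr5:141458723-141459723 in cells 74 and 86, all on plate 1. On markers, a kept feature held a start of 5 of 6 genes of adherent cells (VIM, an intermediate filament, in 25 nuclei, CAV1, a coat protein of caveolae, in 22 and FN1, fibronectin, in 17) and of 1 of 10 blood genes (the receptor KIT, in 16 nuclei). Of 6 genes of neurons 4 had one, with SNAP25 (a vesicle fusion protein) in 7 nuclei, GAP43 (of growing axons) in 6 and SYP (synaptophysin) in 6. Over all protein-coding genes 50.0% had such a feature, and these lists are short.

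A promoter peak, here a kept feature that contains an annotated start of the gene, was found for 8 of the 53 members (15.1%), beside 50.0% of all protein-coding genes. The C-type genes had 3 of 5, the alpha variable genes 3 of 13, the beta genes 1 of 16 and the gamma variable genes 1 of 19. Without cells 37 to 48 and 73 to 96 the count was 6, beside 42.6% of all genes, and PCDHA3 and PCDHA5 were the 2 that were lost. The promoters that were called were seen in a median of 6 passing nuclei, beside 9 for all genes with a promoter peak and 7 and 8 for those with 40 to 45% and 45 to 50% GC. Counted by feature, the median was 6 for members and 7 for all protein-coding genes, and 77.8% and 74.8% of these features reached 5 nuclei. Promoter peaks in at least 5 nuclei were found for 6 members (11.3%), beside 40.1% of all genes, and none reached the 10 nuclei that 22.1% of all genes reached.

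**Figure D1:**
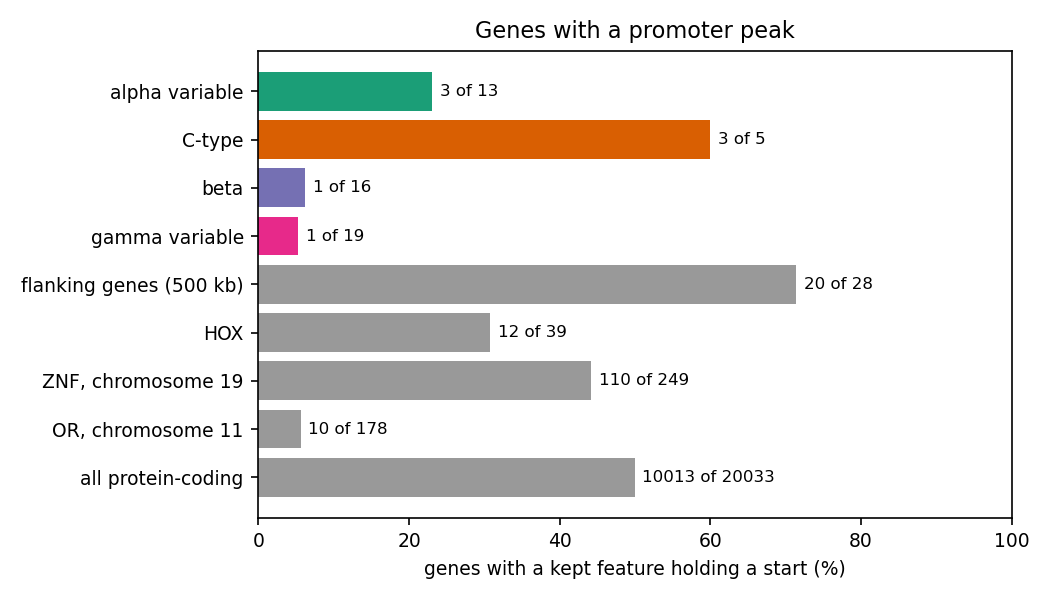
Percentage of genes with a kept feature that holds an annotated start (x axis), for the 4 types of clustered protocadherin (coloured) and for comparison sets (grey), with the counts beside each bar. The C-type genes (3 of 5) stand above the variable alpha, beta and gamma genes, and the flanking genes (20 of 28) above all 4 types.

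The genes around the clusters were counted in the same way, with no test of their difference from the members. Of the 28 other protein-coding genes with a start within 500 kb of the interval, 20 (71.4%) had a promoter peak, with a median of 9.5 nuclei and up to 25 (DIAPH1, an actin-nucleating formin, over 4 features). Some of them had equal counts on each plate, such as ANKHD1 and ANKHD1-EIF4EBP3 (23 nuclei each) and HARS1 and HARS2 (10 each). A feature may thus count for more than 1 gene. The flanking genes had a median of 61.1% GC in 1 kb around the start, beside 44.4% for the members. Over all protein-coding genes the share with a promoter peak was 16.7% at 40 to 45% GC and 59% at 60 to 65%. Among other gene families that lie in clusters, the HOX genes had 12 of 39 (30.8%), the ZNF genes of chromosome 19 had 110 of 249 (44.2%) and the OR genes of chromosome 11, which encode odorant receptors, had 10 of 178 (5.62%). The clustered protocadherins thus lay between the odorant receptor genes and the HOX genes on this count. Median GC content around the start was 59.7% for the HOX genes, 58.4% for the ZNF genes and 39.4% for the OR genes. Its part in this order was not tested. Of the other protein-coding genes inside the interval, TAF7, which encodes a subunit of the general transcription factor TFIID, was seen in 7 nuclei (2 on plate 1 and 5 on plate 2), and SLC25A2, a mitochondrial amino acid carrier, and ENSG00000279983 had no promoter peak. The count for TAF7 comes from a pair of overlapping features, at chr5:141319638-141320638 (6 nuclei, 2 and 4 by plate) and chr5:141320253-141321253 (7 nuclei, 2 and 5).

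Of the C-type genes, PCDHAC1 (ENSG00000248383, start 140926299) was seen in 8 of 162 nuclei, 4.94% (interval 2.16 to 9.50%), 2 on plate 1 and 6 on plate 2. PCDHAC2 (ENSG00000243232, start 140966476) was also seen in 8 nuclei, 3 on plate 1 and 5 on plate 2, in a feature that also holds a start of ENSG00000279028, a long non-coding RNA on the reverse strand. PCDHGC3 (ENSG00000240184, start 141475966) was seen in 9, 5.56% (interval 2.57 to 10.3%). This was the highest number among the 8 members with a promoter peak, but the intervals of all 3 overlap widely. PCDHGC3 had the largest difference between plates in number of nuclei among the 23 features, a comparison made after the values were seen, with 8 nuclei on plate 1 (9.64%, interval 4.25 to 18.1%) and 1 on plate 2 (1.27%, interval 0.032 to 6.85%). The 2 plate intervals overlap, which is not a test of their difference. Outside cells 37 to 48 and 73 to 96, PCDHGC3 was seen in 5 nuclei of plate 1 and 1 of plate 2, PCDHAC1 in 1 and 2, and PCDHAC2 in 3 and 2. No feature of the table held a start of PCDHGC4 or PCDHGC5, and the centre of the nearest one lay 9.06 kb from the start of PCDHGC4 and 13.1 kb from that of PCDHGC5.

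Of the alpha variable genes, PCDHA11 (start 140868957) had a feature centred within 0.004 kb of its start and was seen in 6 nuclei, 3.7% (interval 1.37 to 7.89%), 1 on plate 1 and 5 on plate 2. Only 2 of these 6 nuclei lay outside cells 37 to 48 and 73 to 96. PCDHA3 was seen in 3 nuclei of plate 2 and in 0 of 83 on plate 1, where 3 counts, the limit taken for a count of 0, would be 3.61% and the exact interval reaches 4.35%. PCDHA5 was seen in 2 nuclei of plate 1 and in 0 of 79 on plate 2, where 3 counts would be 3.80% and the exact interval reaches 4.56%. Neither PCDHA3 nor PCDHA5 was seen in any nucleus outside those cells, so both promoters rest on wells that share peaks. With shared peaks taken from the higher-numbered cell of a pair, PCDHA3 kept its 3 nuclei and PCDHA5 kept 1. Their features also hold a start of ENSG00000279726, a long non-coding RNA on the other strand, and are centred 0.442 and 0.298 kb from the PCDHA3 and PCDHA5 starts. The other 10 alpha variable genes had no feature at a start.

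In the beta cluster, PCDHB2 (start 141094615) was the single gene with a promoter peak, seen in 3 nuclei on each plate, 3.7% in all (interval 1.37 to 7.89%). All 3 of its nuclei outside cells 37 to 48 and 73 to 96 were on plate 1. The other feature of the beta cluster, at chr5:141076646-141077646, was centred 17.5 kb from the PCDHB2 start and was seen in the pair of wells named above. From 141095200 to 141319638, over 224 kb that hold the starts of 14 beta genes, PCDHB3 to PCDHB16, the table has no feature. This was the longest gap of the interval, and the next one, of 77.4 kb, held the starts of 14 gamma variable genes.

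In the gamma cluster the variable gene with a promoter peak was PCDHGA10 (start 141412987). It had a pair of overlapping features, at chr5:141412447-141413447 and chr5:141412961-141413961, each seen in 5 nuclei and together in 6, 2 on plate 1 and 4 on plate 2. Of these 6 nuclei 5 lay outside cells 37 to 48 and 73 to 96, the highest share kept among the variable genes. A feature over the end of the long exon of a PCDHGA1 transcript, centred 4.08 kb from the canonical start, was seen in 4 nuclei, 2 on each plate. At the far end of the cluster, the feature at chr5:141512524-141513524 overlapped the end of the last constant exon (chr5:141510947-141512975) and was seen in 4 nuclei, 2 on each plate, 1 of them outside those cells.

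**Figure D2:**
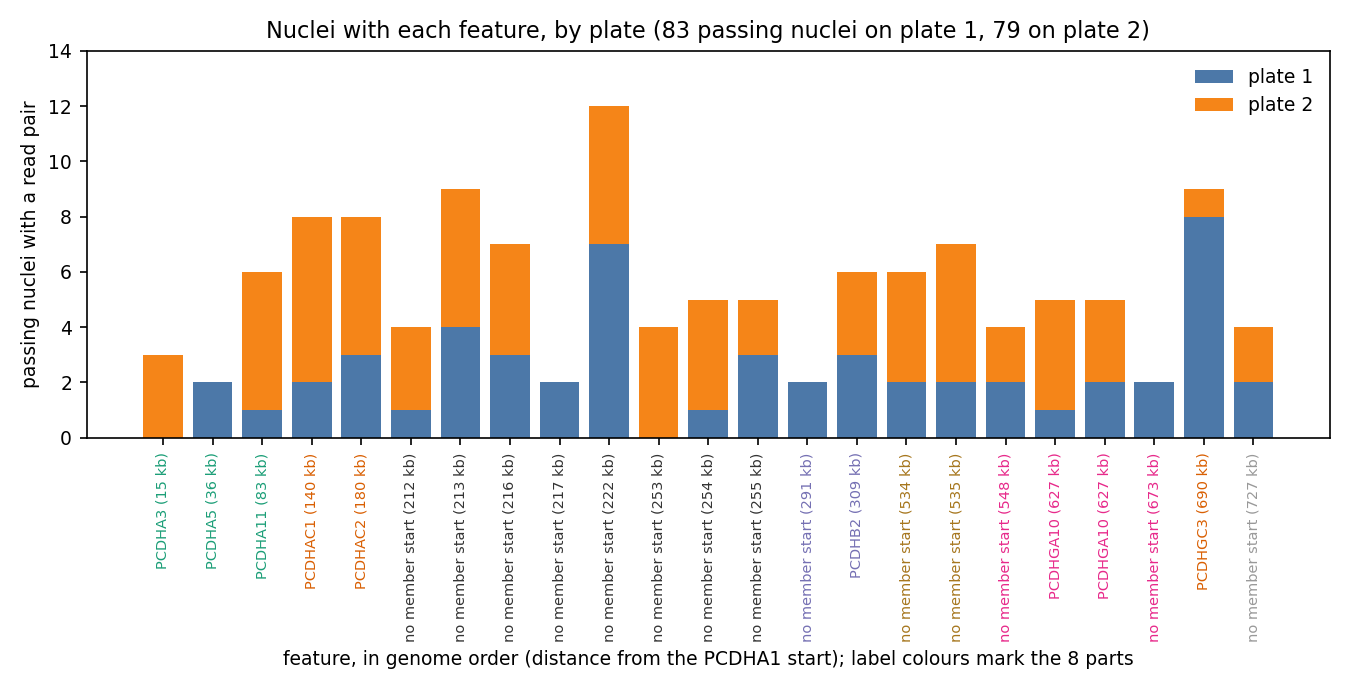
Number of passing nuclei with a read pair (y axis) in each of the 23 features in genome order (x axis, with the distance from the PCDHA1 start in kb), stacked by plate. The feature at 222 kb, in the alpha constant end, was seen in 12 nuclei, and the PCDHGC3 feature was seen in 8 nuclei of plate 1 and 1 of plate 2.

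With all passing nuclei, the feature of the interval seen in most of them was not at a gene start. It lay at chr5:141007532-141008532, in the intron between the second and the third alpha constant exon with its end 1.09 kb before the latter, and was seen in 12 nuclei, 7.41% (interval 3.89 to 12.6%), 7 on plate 1 and 5 on plate 2. Outside cells 37 to 48 and 73 to 96 it was seen in 5 of 91 nuclei, the PCDHGC3 feature in 6 and the PCDHAC2 feature in 5, so that it no longer led. Of all kept features, 8.01% were seen in at least as many passing nuclei. Its GC content was 38.4% and its ratio of observed to expected CpG was 0.03. Kept features holding no protein-coding start had medians of 40% and 0.19. The C-type promoter features of the alpha cluster had 66.7% and 66.3% GC and ratios of 0.83 and 0.67. The central 300 bases of the intron feature, shown because it led the clusters when all passing nuclei were counted, hold no CGCT.
most widely seen feature, centre (chr5:141007882-141008181): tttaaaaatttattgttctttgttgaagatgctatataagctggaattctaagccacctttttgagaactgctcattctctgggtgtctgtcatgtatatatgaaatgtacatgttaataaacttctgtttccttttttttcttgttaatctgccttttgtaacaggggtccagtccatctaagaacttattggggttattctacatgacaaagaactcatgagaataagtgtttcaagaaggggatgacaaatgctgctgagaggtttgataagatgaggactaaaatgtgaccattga

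This intron, of 27.1 kb, held 5 features within a span of 10.8 kb. The one at chr5:140999033-141000033 was seen in 9 nuclei (4 on plate 1 and 5 on plate 2), that at chr5:141001707-141002707 in 7 (3 and 4), that at chr5:140997685-140998685 in 4 (1 and 3) and that at chr5:141002853-141003853 in 2 (both on plate 1). Together the 5 were seen in 27 nuclei, 16.7% (interval 11.3 to 23.3%), 15 on plate 1 and 12 on plate 2, and 11 of these nuclei lay outside cells 37 to 48 and 73 to 96. After the third alpha constant exon (chr5:141009627-141012347) and before PCDHB1 came 3 more features, the first beginning 26.2 kb from the exon and all within 3.15 kb. They were seen in 4, 5 and 5 nuclei and together in 13 (8.02%, interval 4.34 to 13.3%), 4 on plate 1 and 9 on plate 2. The last of them, at chr5:141040724-141041724, holds a start of ENSG00000288892, a long non-coding RNA on the reverse strand.

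**Figure D3:**
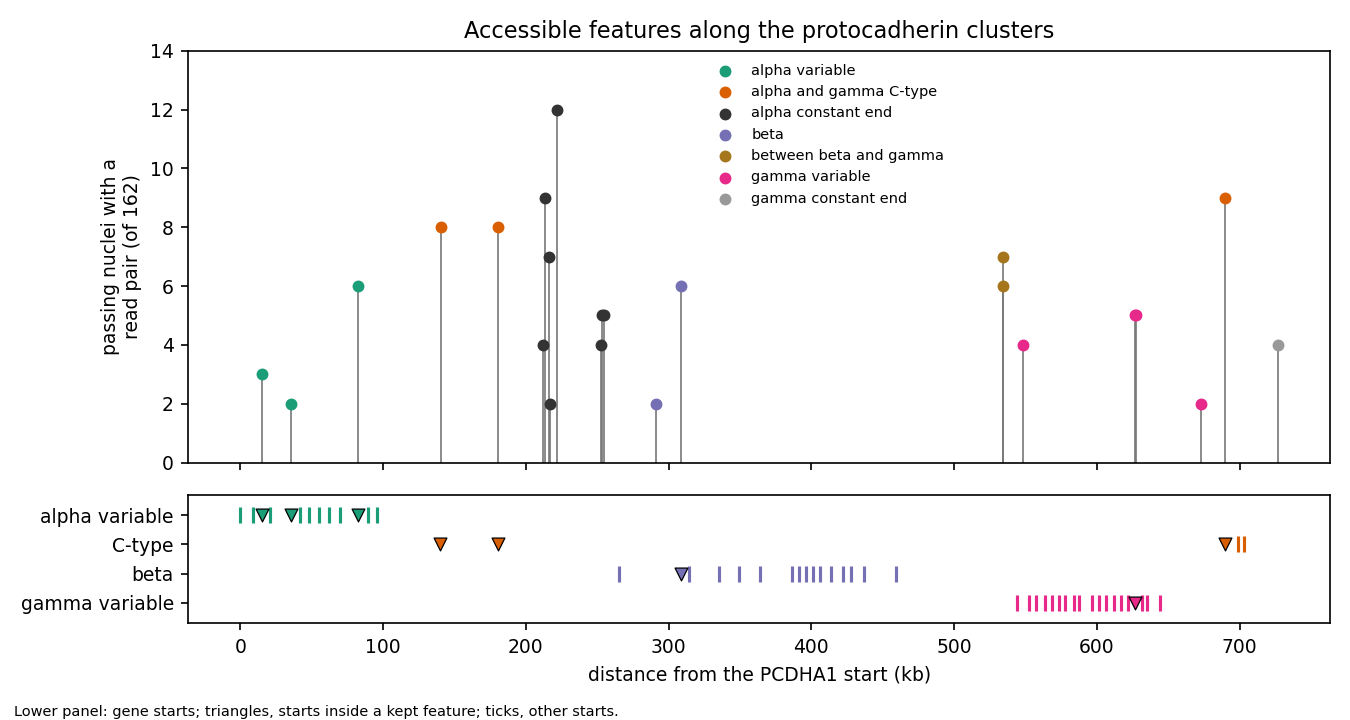
Upper panel, passing nuclei of 162 with a read pair (y axis) in each feature, placed by its distance from the PCDHA1 start in kb (x axis) and coloured by part of the clusters. Lower panel, starts of the 53 genes by type, with triangles for the 8 starts inside a kept feature and ticks for the other 45; the beta genes from about 315 kb on lie under no feature.

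By part of the clusters, cut at the annotated exons and 1 kb before the first gene of a part, the alpha constant end held 8 of the 23 features and 38.4% of the detections, a detection being 1 feature seen in 1 passing nucleus. At least 1 of its features was seen in 33 nuclei (20.4%, interval 14.5 to 27.4%), 16 on plate 1 and 17 on plate 2. The alpha C-type part was seen in 16 nuclei (9.88%, interval 5.75 to 15.5%), the alpha variable part in 11 (6.79%, interval 3.44 to 11.8%) and the beta part in 8 (4.94%, interval 2.16 to 9.50%). The gamma variable, C-type and constant parts were seen in 11, 9 and 4 nuclei. The parts differ in length, with 71.4 kb for the alpha constant end and 25.2 kb for the gamma constant end. The latter stops where the interval ends, so sequence farther downstream was not counted. Per Mb the alpha constant end had 672 detections, the gamma C-type part 453 and the alpha C-type part 298, beside 162 between the beta and gamma clusters, 159 in the gamma constant end, 75.7 in the alpha variable part, 110 in the gamma variable part and 40.2 in the beta part. Overlapping features count separately in these values, as in the alpha constant end and the gamma variable part. All 13 detections between the beta and gamma clusters came from the overlapping TAF7 features, seen in 7 nuclei. Outside cells 37 to 48 and 73 to 96, the alpha constant end was seen in 15 of 91 nuclei (16.5%), the alpha C-type part in 8 and the alpha variable part in 2.

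As a whole the interval was not poor in features. It had 31.1 kept features and 169 detections per Mb, beside 28.1 and 141 on chromosome 5 and 25.5 and 130 over the autosomes and X. When the genome was cut into stretches of 740 kb, 3856 had a feature, and 64.4% of these had fewer features than the interval. The features of the interval were seen in a median of 5 nuclei (2 to 12), beside 3 for all kept features, and 14 of 23 (60.9%) reached 5 nuclei, beside 37.6%. At 10 nuclei the order turned, with 1 of 23 (4.35%) beside 12%.

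Base composition differed between the types of promoter. In 1 kb around the start, PCDHAC1 had 63% GC and PCDHAC2 64.5%, PCDHGC3 had 53.4%, PCDHGC4 55.7% and PCDHGC5 54%. The alpha variable genes had 41.5 to 47.2%, the beta genes 40.6 to 49.3% and the gamma variable genes 41.8 to 50.5%, all below the median of 61.3% over protein-coding genes. PCDHGC5 stood apart from the other C-type genes in its CpG ratio, 0.19 beside 0.61 to 0.79. The beta genes had the lowest median ratio of the 4 types (0.495) and the alpha variable genes the highest (0.77).

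**Figure D4:**
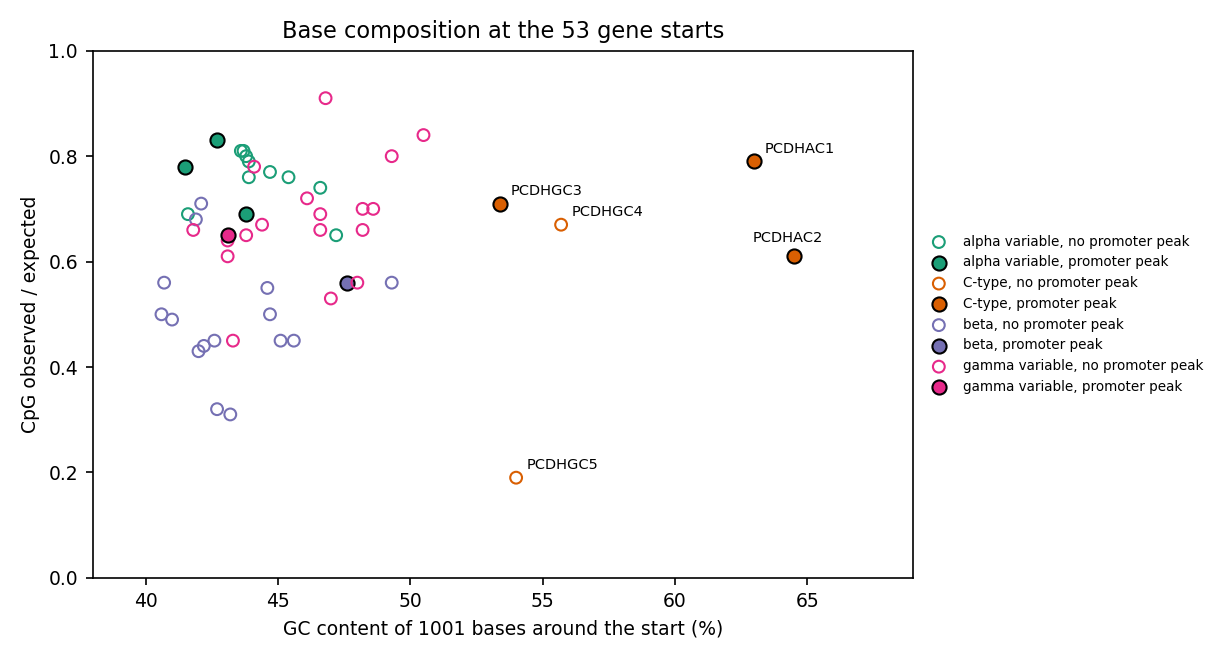
Ratio of observed to expected CpG (y axis) against GC content in percent (x axis) in 1 kb around each of the 53 canonical starts, coloured by type and filled where the gene had a promoter peak. The 5 C-type genes lie at 53.4% GC and above, and the filled variable genes lie among the open ones.

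The share of genes with a promoter peak also differed by GC content, and the members are set beside genes of like GC here. Among genes with 40 to 45% GC, 168 of 1003 (16.7%) had a promoter peak, and 4 of 30 members did. At 45 to 50% GC it was 340 of 1251 genes (27.2%) and 1 of 17 members. At 50 to 55% it was 41.1% of genes and 1 of 3 members, at 55 to 60% it was 53.7% and 0 of 1, and at 60 to 65% it was 2405 of 4078 (59%) and both alpha C-type genes. Those counts of all genes include the members, and the part of GC content in the members' count was not tested.

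Reads of low mapping quality were removed before counting, so repeated sequence at the starts was also measured. All 31-base words of the 1 kb around the start occurred once in the genome for the 5 C-type genes and for 12 of the 16 beta genes, but for none of the 13 alpha variable genes, where 77.5 to 92.7% of words did. The lowest values were those of PCDHB13 (46.2%), PCDHB8 (49.4%), PCDHGB5 (58.2%) and PCDHGB4 (58.8%), named after their values were seen, and none of these had a promoter peak. The variable genes with a promoter peak had a median of 87.7% and those without one 96.1%, but 3 of the 5 with a peak are alpha variable genes. By type the medians were 83.5% (alpha variable), 100% (beta) and 96.4% (gamma variable). PCDHA3, PCDHA5 and PCDHA11 had 82.5%, 87.7% and 83.6%, within the range of the alpha variable genes. In the gap of 224 kb over the beta genes, 83.6% of words occurred once, beside 86.1% over the whole interval. The part of repeated sequence in the missing promoters was not tested.

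A plain version of the core bound by CTCF was searched on both strands. It begins with CC, has AG after 3 free bases and ends with GGC after 2 more. In the promoter window of 300 bases 1 of 53 members had it (PCDHB9, 1.89%), beside 12.9% of all protein-coding promoters, and in 1 kb around the start 16 members (30.2%) had it, beside 31.9%. Median GC content in 1 kb around the start was 44.4% for the members and 61.3% for all protein-coding genes, and its part in these shares was not tested. Of the 23 features, 6 (26.1%) had this form, at 5 separate sites, beside 14.9% of all kept features. Kept features holding no protein-coding start had it in 11.6%, and the mix of features with and without a start was not matched here. Of the 9 promoter features of members 4 had it (44.4%), beside 33.7% of the promoter features of all protein-coding genes, but 2 of the 4 are the overlapping PCDHGA10 features with the same site, so these are 3 separate sites at 8 members. The sites are printed below with 44 bases on each side and the form in capitals. Those at PCDHA5, PCDHAC1 and PCDHGA10 lie 616, 313 and 368 bases after the start and on the strand of the gene. The alpha intron feature has it on the same strand as the genes, and the feature before PCDHB1 on the other strand, so that its capitals read as the reverse complement. A match is a description of letters and not of bound protein, and a promoter without this form may still hold a CTCF site of another form.
PCDHA5 feature (chr5:140822185-140822284): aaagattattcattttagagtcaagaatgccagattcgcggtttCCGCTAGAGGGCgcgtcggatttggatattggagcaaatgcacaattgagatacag
PCDHAC1 feature (chr5:140926568-140926667): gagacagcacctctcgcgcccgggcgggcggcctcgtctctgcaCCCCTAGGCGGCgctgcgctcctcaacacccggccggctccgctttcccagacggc
alpha intron feature (chr5:140999035-140999134): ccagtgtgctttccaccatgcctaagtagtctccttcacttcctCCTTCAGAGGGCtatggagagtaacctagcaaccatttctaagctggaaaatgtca
feature before PCDHB1 (chr5:141041328-141041427): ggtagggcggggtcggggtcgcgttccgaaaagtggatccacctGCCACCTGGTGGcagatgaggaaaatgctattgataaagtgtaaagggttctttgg
PCDHGA10 features (chr5:141413311-141413410): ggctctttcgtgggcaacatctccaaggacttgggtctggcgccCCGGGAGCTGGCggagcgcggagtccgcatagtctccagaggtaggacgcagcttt

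Of the passing nuclei, 67 (41.4%, interval 33.7 to 49.4%) had a read pair in at least 1 feature of the interval, 30 of 83 on plate 1 (36.1%, interval 25.9 to 47.4%) and 37 of 79 on plate 2 (46.8%, interval 35.5 to 58.4%). The share followed depth, from 6 of the 41 nuclei with the fewest read pair counts to 32 of the 40 with the most, while the detections in the interval per 1000000 detections were 238, 341, 282 and 338 from the shallowest to the deepest of 4 such groups, with no steady trend. With each nucleus thinned to 600 read pairs, which left out 10 nuclei of plate 1 and 6 of plate 2, the share was 8.22% on plate 1 (interval 3.08 to 17%) and 21.9% on plate 2 (interval 13.1 to 33.1%). Unthinned, detections in the interval were 277 per 1000000 on plate 1 (interval 209 to 361) and 360 on plate 2 (interval 281 to 455). Plate 2 had the higher value in each of these 3 comparisons. The intervals of the plates overlap in each, which is not a test of their difference.

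**Figure D5:**
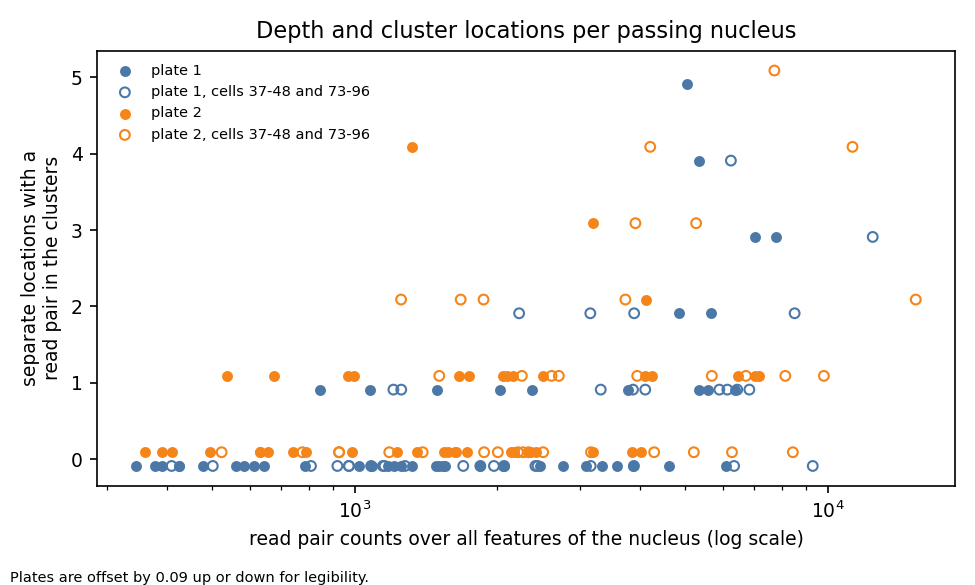
Number of the 20 separate locations of the interval with a read pair (y axis) against the read pair counts of each passing nucleus on a log scale (x axis), by plate, with open circles for cells 37 to 48 and 73 to 96. Nuclei with several locations lie mostly at high counts, and 67 of the 162 nuclei have at least 1 location.

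When overlapping features were joined, the interval had 20 locations, and 42 nuclei were seen at 1 of them, 12 at 2, 6 at 3, 5 at 4 and 2 at 5. The 2 nuclei at 5 locations were cell 34 of plate 1, with PCDHAC2, 3 features of the alpha constant end and PCDHGC3, and cell 94 of plate 2, with PCDHAC1, 3 features of the alpha constant end and PCDHB2. A member promoter was seen in 41 nuclei (25.3%, interval 18.8 to 32.7%), a single one in 34 and 2 in 7, and no nucleus had 3. The 7 pairs were PCDHAC2 with PCDHGC3, PCDHA11 with PCDHGA10, PCDHAC1 with PCDHGC3, PCDHGA10 with PCDHGC3, PCDHA11 with PCDHAC2, PCDHA3 with PCDHB2 and PCDHAC1 with PCDHB2. Of the 7 nuclei with such a pair, 4 were among cells 37 to 48 and 73 to 96 and 3 were outside them, and cell 94 of plate 2 was one of the 4. At this depth a promoter that was not seen in a nucleus may still be open there, and in the wells that share peaks a detection may not belong to that nucleus alone. Of the 16 nuclei with an alpha C-type feature, 9 also had a feature of the alpha constant end, and these 9 had a median of 5046 read pairs, beside 2068 over all passing nuclei. Outside cells 37 to 48 and 73 to 96 it was 3 of 8. Over all passing nuclei the alpha constant end was seen in 33 of 162 (20.4%). It was also seen in 5 of the 9 nuclei with the gamma C-type feature and in 4 of the 8 with a beta feature. Outside those cells these were 3 of 6 and 0 of 3. For the alpha variable, gamma variable and gamma constant parts it was 2 of 11, 3 of 11 and 3 of 4, and between the beta and gamma clusters 1 of 7. The overlap was thus not particular to the alpha C-type part.

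Most detections were a single read pair, and 17 of the 125 in the interval (13.6%) had more than 1, beside 14.6% over all kept features. No feature of the interval was seen with more than 3 read pairs in a nucleus.

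Genes that act on the clusters, and genes related to them, were also counted, with no test of their difference from the members. Of 24 genes for the architecture and silencing of the clusters, 16 (66.7%) had a promoter peak, led by STAG2, a cohesin subunit, in 29 nuclei (13 on plate 1 and 16 on plate 2), LRIF1, a partner of the silencing factor SMCHD1, in 25 (11 and 14) and REST, a repressor of neuronal genes, in 21 (8 and 13). Of 11 non-clustered protocadherins, which are single genes outside the interval, 8 (72.7%) had one, led by PCDH9 in 29 nuclei (15 and 14) and PCDH12 and PCDH19 in 12 each (5 and 7). Of 14 intracellular partners 11 (78.6%) had one, led by ABI1, a subunit of the WAVE complex, in 20 nuclei (7 and 13). Next were PTK2B, a relative of focal adhesion kinase, in 18 (8 and 10) and CYFIP2, also of the WAVE complex, in 10 (4 and 6). PTK2 tied with CYFIP2, also at 10 (4 and 6). Each of these 3 shares stands beside the 50.0% of all protein-coding genes. PCDH1 and PCDH12 also lie within 500 kb of the interval and were counted among the flanking genes above. The median GC content around the start was 66.4%, 52.4% and 70.6% in these lists, beside 44.4% for the members. Of all genes, 59.9% had a promoter peak at 65 to 100% GC and 41.1% at 50 to 55% GC. At 40 to 45% and 45 to 50% GC it was 16.7% and 27.2%.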

How the data were processed

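Single nuclei of HAP1 cells were profiled by plate-based snATAC-seq. The study's methods give trimming, alignment to hg38 with bowtie2, removal of mitochondrial reads, low mapping quality and duplicates within a cell, and peak calling by MACS2 over the pool of cells, so that both plates share 1 set of features, each 1 kb wide. The authors deposited raw counts, the number of read pairs by feature and cell from featureCounts (version 1.6.0), not normalized, and 1 pair can count in several overlapping features. No doublet caller was run.

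The counts were reduced to seen or not seen. A peak was kept when at least 2 cells had it (77053 of 80971), and a cell passed above 300 kept peaks. Starts came from GENCODE 44, and sequence, GC content, motifs and 31-base words from the hg38 genome, whose 24 chromosome names matched. The lists were the architecture and silencing of the clusters, non-clustered protocadherins, intracellular partners, and markers of blood, adherent cells and neurons. The text names the C-type genes, members with a promoter peak, the 12 features seen in most nuclei, other genes of the interval and the first 3 genes of each list. The members and lists were chosen with earlier results of these data known. Alternatives covered the filters, the definition of a promoter peak, thinning and the shared wells. The scripts were tested on simulated data and run with Python 3.11.15, SciPy 1.17.1, NumPy 2.4.6, Numba 0.67.0, pandas 2.3.3 and matplotlib 3.10.9.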

Additional observations from a re-analysis of the deposited data

How the results depend on the processing

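Of 31 alternatives to 8 results, 22 kept the value within its interval or a count within 1.5 times. The features of the interval fell from 23 to 14 when a peak had to be seen in at least 5 cells, to 1 at 10 cells, and to 15 without cells 37 to 48 and 73 to 96, where 51.5% of all kept features remained. Members with a promoter peak fell from 8 to 0 at 10 cells, where 20.2% of all protein-coding genes had one. They were 6 at 5 cells (39.6% of all genes), and, in alternatives added after seeing the data, 6 without those cells (42.6%) and 7 with shared peaks taken from the higher-numbered cell of a pair (48.9%). The share of nuclei with a read pair in the interval rose from 41.4% to 51.3% among nuclei with more than 1000 peaks and was 15.1% after thinning to 600 read pairs. Thinning also took the most widely seen feature from 7.41% to 0.685% of nuclei. A window of 1 kb in place of 300 bases moved the share of members with CGCT from 96.2% to 100%, beside 94.3% of all protein-coding genes in the wider window, and with the form of the CTCF core from 1.89% to 30.2%. The depth of single nuclei limits every share of nuclei given here. No paired analysis was possible because each plate is 1 sample, and a number that cells of both plates carry is not said to mark a shared origin.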
